A study of Rattus norvegicus with 8 samples.

Results

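The nuclear-encoded subunits of the mitochondrial respiratory chain and ATP synthase were examined in rat skin as a set of 80 genes among the 13903 genes that could be named on the array. Members were the genes with symbols beginning Nduf, Uqcr, Cox4 to Cox8 or Atp5, together with Sdha, Sdhb, Sdhc and Sdhd, and they were measured by 83 of 24684 noncontrol probes. Of the 120 gene symbols of the reference table that fit this rule, with pseudogenes left out, the other 40 had no named probe. The members comprised 33 genes of complex I, 5 complex I assembly factors (Ndufaf genes, which the prefix brings in although they are not subunits of the finished complex), 4 of complex II, 7 of complex III, 16 of complex IV and 15 of complex V. By prefix Ndufa4 was counted with complex I, although its protein is found in complex IV. The test filter kept 79 members, and Cox8c, a testis subunit, was not well above background in any sample.

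Full-thickness skin came from male Sprague-Dawley rats. The STZ group was injected intraperitoneally at 4 weeks of age with 60 mg/kg streptozotocin (STZ), which destroys pancreatic beta cells and induces diabetes, and the sham group received sodium citrate solution. Skin was harvested 4 weeks after injection, at 8 weeks of age. The labels also speak of a cutaneous wound, and whether the sampled skin was wounded, how many rats gave the RNA of an array, and the glucose level of any rat are not given in the sources used here. Total RNA was labelled with Cy3 and hybridised to 1-colour arrays.

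The labels list 4 samples per group, but replicates 1 and 3, and 2 and 4, of each group were readings of the same array. Spot deviations correlated at 0.975 to 0.991 within these 4 pairs and at 0.414 to 0.504 between other samples of a group. Between samples of different groups they correlated at 0.348 to 0.687. Each pair was averaged, which left 2 sham arrays (1+3 and 2+4) and 2 STZ arrays (1+3 and 2+4), and n was 2 per group throughout. The STZ 2+4 array stood apart, with a 75th percentile intensity of 606 and 624 in its 2 readings against 1138 to 1496 in the other samples. Probes well above background numbered 20267 to 20819 in the sham samples. They numbered 21430 and 21275 in the readings of STZ 1+3 and 22889 and 22759 in those of STZ 2+4. No spot was saturated. Skin markers were measured on every array, with a summed level of basal keratinocyte markers between 144 and 298 times the 75th percentile intensity.

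In the respiratory chain, complexes I and II pass electrons from NADH and succinate to coenzyme Q, complex III passes them on to cytochrome c, and complex IV reduces oxygen. Complexes I, III and IV pump protons across the inner mitochondrial membrane, and complex V, the ATP synthase, uses the gradient to make ATP. Most subunits are encoded in the nucleus and a few core subunits in mitochondrial DNA, and several complex IV subunits exist as ubiquitous and as tissue-restricted isoforms. None of the 13 mitochondrially encoded subunits had a named probe, nor had Cyc1, the cytochrome c1 of complex III, so the values below cover the nuclear part alone.

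The promoters of these genes are shown because many respiratory genes are known targets of the nuclear respiratory factors NRF1 and GABP (an ETS factor), of YY1 and of the estrogen-related receptors (ERR). RefSeq promoters of the assembly GRCr8 were found for 70 members, as windows of 300 bases from 250 before to 50 after the start site. Both strands were searched for GCATGCGC (NRF1), AAGATGGC (YY1), TCAAGGTCA (ERR) and the ETS core CCGGAAG. The TATA box was searched as TATAAA. None of these motifs contains another, although matches to 1 motif on opposite strands can overlap. The 200 bases before the start site of a member of each complex, with a second complex IV gene, are printed 5′ to 3′ in the direction of the gene, with matches to these motifs that lie wholly inside in capitals.
Ndufs1, chr9:72073606-72073805, minus strand: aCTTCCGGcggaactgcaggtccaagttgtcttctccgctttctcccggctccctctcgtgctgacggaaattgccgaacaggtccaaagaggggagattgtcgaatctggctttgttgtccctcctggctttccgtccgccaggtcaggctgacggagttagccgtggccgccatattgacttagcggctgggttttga
Sdhb, chr5:158547734-158547933, plus strand: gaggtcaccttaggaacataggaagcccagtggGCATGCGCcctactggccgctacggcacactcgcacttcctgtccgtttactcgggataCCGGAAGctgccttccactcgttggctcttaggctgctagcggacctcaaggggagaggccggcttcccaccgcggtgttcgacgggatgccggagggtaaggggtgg
Uqcrc2, chr1:184599040-184599239, plus strand: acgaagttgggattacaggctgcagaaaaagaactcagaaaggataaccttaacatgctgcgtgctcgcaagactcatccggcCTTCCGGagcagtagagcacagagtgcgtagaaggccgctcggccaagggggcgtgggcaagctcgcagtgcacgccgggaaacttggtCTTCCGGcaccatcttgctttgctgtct
Cox8a, chr1:213833624-213833823, minus strand: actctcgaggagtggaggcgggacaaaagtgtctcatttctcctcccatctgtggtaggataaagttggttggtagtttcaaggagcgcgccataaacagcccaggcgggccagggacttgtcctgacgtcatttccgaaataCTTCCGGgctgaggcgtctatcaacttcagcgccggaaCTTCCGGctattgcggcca
Cox8b, chr1:205408274-205408473, minus strand: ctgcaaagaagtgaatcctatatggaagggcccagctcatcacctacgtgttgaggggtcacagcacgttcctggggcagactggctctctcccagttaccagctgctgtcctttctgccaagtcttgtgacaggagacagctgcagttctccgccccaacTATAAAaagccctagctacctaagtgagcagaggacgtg
Atp5po, chr11:44657484-44657683, minus strand: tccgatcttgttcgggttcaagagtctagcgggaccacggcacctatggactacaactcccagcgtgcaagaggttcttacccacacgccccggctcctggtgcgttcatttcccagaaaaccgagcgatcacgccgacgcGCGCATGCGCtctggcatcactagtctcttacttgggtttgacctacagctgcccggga

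Among the 70 member promoters, 10 (14.3%) held the NRF1 motif, against 3.96% of 10288 promoters of tested genes and 2.47% of all 33469 promoters. The ETS motif was found in 21 (30.0%), against 14.1% and 8.75%, and the YY1 motif in 12 (17.1%), against 4.4% and 3.17%. At least 1 of these motifs stood in 32 of 70 member promoters (45.7%) and in 20.3% of promoters of tested genes. The ERR motif was found only in the Sdhd window (1.4%, against 0.214% and 0.433%), and a TATA box in 5 (7.1%, against 10.5% and 14.2%). In the sequences above, Ndufs1 held an ETS match, Sdhb an NRF1 and an ETS match, Uqcrc2 and Cox8a 2 ETS matches each, and Atp5po overlapping NRF1 matches on both strands. Cox8b, the heart and muscle isoform, held a TATA box and none of the other motifs, while Cox8a, the ubiquitous isoform of the same subunit, held no TATA box. The median change of the members, on the scale defined next, was nearly the same with and without the motif for NRF1 (−0.43 and −0.42), YY1 (−0.44 and −0.41) and ETS (−0.37 and −0.46).

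Levels are log2 intensities over the 75th percentile of the array, and changes are STZ minus sham on the log2 scale. On that scale the median of all 21529 tested probes was itself 0.23 higher in STZ, so changes are printed relative to that median unless stated otherwise, while p-values (limma) test the change on the 75th percentile scale. The 79 members had a median change of −0.41 (−0.18 on the 75th percentile scale), with a middle range of −0.63 to −0.27, and 72 of them lay below the median of all probes. The shifts were small: 24 members were 1.5-fold or more below that median and 2 were 2-fold or more below it. The medians were −0.47 in complex I, −0.48 in the Ndufaf assembly factors, −0.47 in complex II, −0.41 in complex III, −0.26 in complex IV and −0.39 in complex V.

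**Figure D1:**
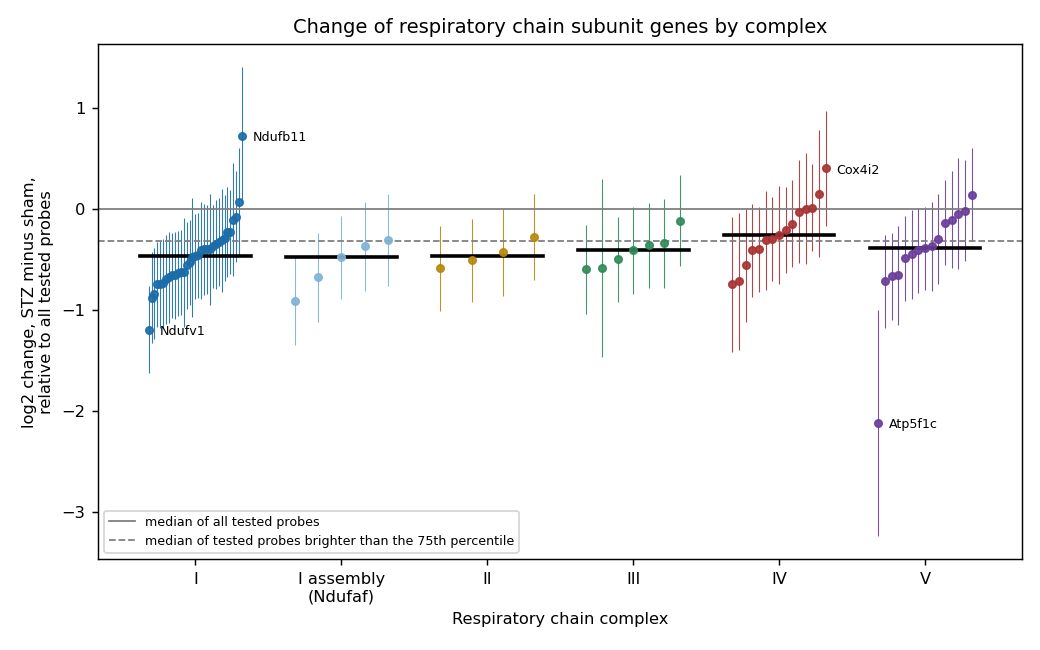
Log2 change (STZ minus sham, relative to all tested probes) of each tested member, by complex. Points are genes with their standard errors, black bars are medians, the grey line is the median of all tested probes and the dashed line that of probes brighter than the 75th percentile (−0.32). Most points lie below the grey line and scatter about the dashed line, with Atp5f1c at −2.12 and Ndufb11 at 0.72.

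No member passed the test. After Benjamini-Hochberg adjustment over all tested probes, limma called 0 members and 0 probes of the whole array (0.0%). At an unadjusted p under 0.05 it called 0 of 79 members in either direction, while it called 3.52% of all tested probes as lower and 7.3% as higher. The balance of these calls depended on the scaling, with 1149 probes lower and 1233 higher under quantile normalization and 1354 and 1146 with normexp before it, against 757 and 1572. With each array centred on its median, 125 probes passed adjustment, no member among them. The standard errors of the members ranged from 0.41 to 1.12, with a median of 0.44. With that median, a change on the 75th percentile scale had to reach about 1.13, or 2.19-fold, for an unadjusted p of 0.05. Changes printed relative to all probes lie 0.23 below those on that scale. With 2 arrays against 2, an exact permutation test cannot give a p below 0.333. Changes of the size seen in most members were therefore not detectable gene by gene with these arrays.

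With arrays scaled to the 75th percentile, part of the shift was shared by other bright probes. Relative to all probes their median was −0.32, against −0.41 in the members. On the 75th percentile scale itself these medians were −0.09 and −0.18. Without STZ 2+4 the medians relative to all probes were −0.12 for bright probes and −0.31 for the members. With quantile normalization the bright probes had a median of 0.00 and the members −0.18, and with normexp before it −0.02 and −0.20, so that the remaining shift of the members was not shared there. The members were mostly bright, and 65 of 79 had a mean level above the 75th percentile. The 7470 tested probes above that level had a median change of −0.32, and 71.4% of them lay below the median of all probes. The 65 bright members had a median of −0.41, and of all 79 members 52 lay below the median of bright probes. Relative to the bright probes, the median was −0.09 over all members, −0.15 in complex I, −0.16 in the Ndufaf genes, −0.15 in complex II, −0.09 in complex III and −0.07 in complex V, and it turned to 0.06 in complex IV. These residual medians depended on single arrays. Without sham 2+4 the median of all members relative to bright probes turned to 0.06 and that of complex I came to −0.02, while without sham 1+3 they were −0.25 and −0.34 and without STZ 2+4 −0.19 and −0.23. At mean levels between 3 and 4, the 21 members had a median of −0.53 and all 985 probes one of −0.33. Between 4 and 5, the 20 members had −0.36 and all 445 probes −0.21, and above 5 the 7 members had −0.41 and all 375 probes 0.08. In the dimmest range, up to a level of −4, all 6071 probes had a median of 0.70 and 3 members one of 0.07.

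**Figure D2:**
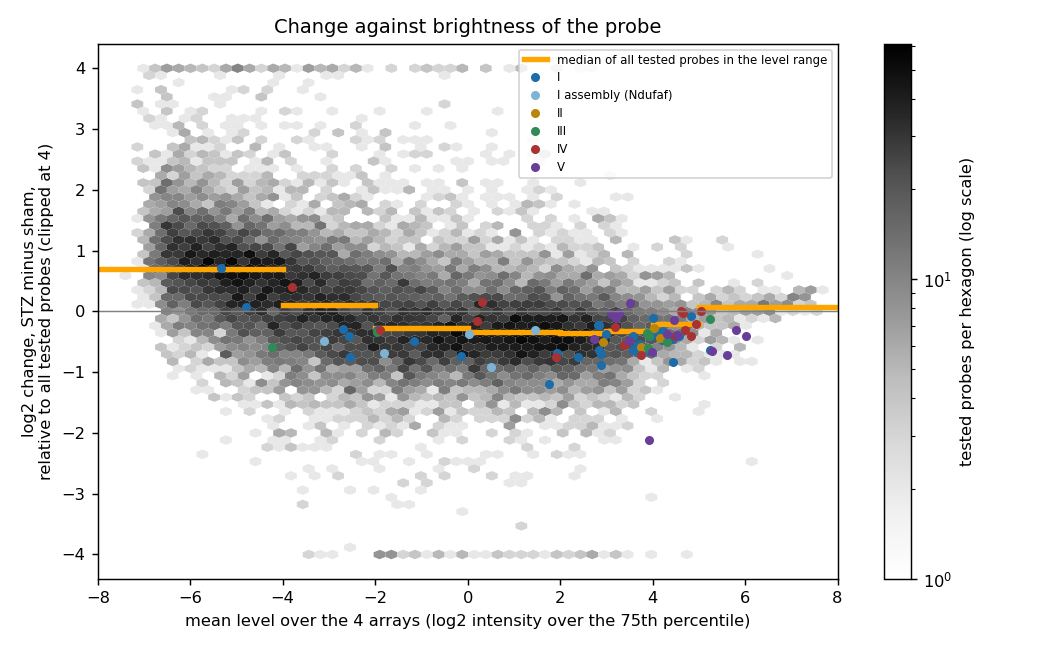
Log2 change relative to all tested probes against the mean level over the 4 arrays (log2 intensity over the 75th percentile). Grey hexagons count all tested probes, orange bars are their medians in 8 ranges of level, and coloured points are the members by complex. The orange bars go from 0.70 among the dimmest probes to −0.36 at levels of 2 to 3 and 0.08 above 5, and most members lie at or below the bar of their range.

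Both STZ arrays were below both sham arrays in 31 of 79 members (39.2%) on the 75th percentile scale, against 17.9% of all tested probes and 30.2% of the bright ones. Both STZ arrays were above both sham arrays in 1 member, Atp5mc2, against 26.8% of all probes. With each array centred on its median, the count below was 46 of 79 (58.2%), against 22.8% of all and 37.1% of bright probes, and Atp5mc2 overlapped. On the 75th percentile scale the groups were apart in 17 of 33 complex I genes, 3 of 5 Ndufaf genes, 2 of 4 in complex II, 2 of 7 in complex III, 1 of 15 in complex IV and 6 of 15 in complex V. Complex IV thus lay under the share of bright probes and complex I above it, and the difference between complexes was not tested.

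**Figure D3:**
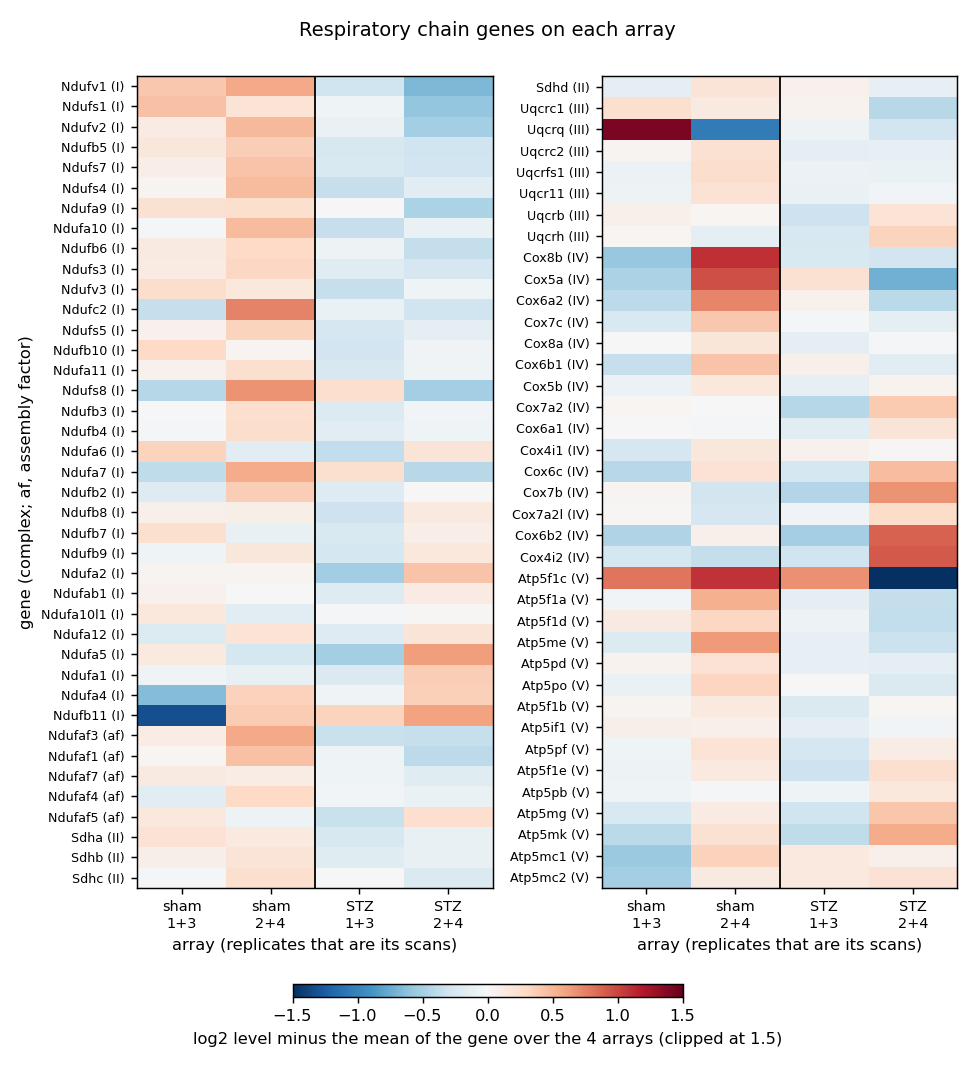
Level of the tested members, with 1 gene not shown, on the 4 arrays, as log2 level minus the mean of the gene over the arrays (75th percentile scale, clipped at 1.5), ordered by complex and change. Red is above and blue below the mean of the gene; complex I genes at the top are red on both sham arrays and blue on both STZ arrays, while the complex IV rows differ mainly by single arrays.

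In complex I, the leading changes were among the subunits that carry the flavin and the iron-sulfur clusters. Ndufv1, which binds NADH and the flavin mononucleotide, had levels of 2.16 and 2.33 on sham 1+3 and 2+4 and of 1.46 and 1.08 on STZ 1+3 and 2+4. Both STZ arrays were low, and the change of −1.20 (SE 0.43), 2.30-fold below the median of all probes, had the smallest p of all members (limma, unadjusted p = 0.0745, adjusted p = 0.516). Ndufs1, the largest iron-sulfur subunit, had 3.32 and 3.09 in sham and 2.82 and 2.30 in STZ, a change of −0.88 (SE 0.45). Ndufv2, the partner of Ndufv1 in the NADH-binding module, had 4.56 and 4.93 in sham and 4.34 and 3.93 in STZ, a change of −0.84 (SE 0.45). In all 3 genes the groups did not overlap, and STZ 2+4 was the lowest array.

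Core subunits of the part that reaches coenzyme Q gave somewhat smaller changes, with standard errors of 0.42 to 0.59. The difference was not tested. Ndufs7, which holds the last iron-sulfur cluster, had 2.49 and 2.82 in sham against 2.16 and 2.10 in STZ (change −0.75). Ndufs3 had 4.05 and 4.24 against 3.75 and 3.67 (−0.66). The groups of both genes did not overlap either. Ndufs8, another iron-sulfur subunit, overlapped, with −1.58 and −0.48 in sham and −0.90 and −1.66 in STZ, a spread within each group larger than its change of −0.48.

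By position in the complex, the 14 tested genes of the matrix arm, which holds the redox centres, had a median change of −0.56, and the groups were apart, STZ lower, in 8. The 15 tested genes of the membrane arm, which pumps protons, had a median of −0.47, also with 8 apart. These shares were 57.1% and 53.3%, against 17.9% of all tested probes and 30.2% of bright ones. With each array centred on its median they were 57.1% and 73.3%, against 22.8% of all and 37.1% of bright probes. The difference between the arms was not tested. Ndufb5, an accessory subunit of the membrane arm, had −2.39 and −2.19 in sham and −2.79 and −2.85 in STZ (change −0.75). Ndufb11, also of the membrane arm, had the highest change of all members at 0.72, but it was dim and rested on the sham 1+3 array, with levels of −6.66 and −4.96 in sham and −5.00 and −4.73 in STZ. Without sham 1+3 its change was −0.10. Ndufa4 was likewise dim, with −5.43 and −4.44 in sham and −4.84 and −4.43 in STZ. Its change of 0.07 was −0.46 with quantile normalization. The values of Ndufa10 and Ndufa10l1, near copies of a gene whose probes may share target RNA, are uncertain as to which copy they measure.

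The 5 measured Ndufaf genes, whose proteins help to build complex I, all lay below the median of all probes. Ndufaf3 was measured by a pair of probes with changes of −0.91 and −0.93, and the brighter had levels of 0.61 and 1.06 in sham and 0.16 and 0.15 in STZ. Ndufaf1 had −1.78 and −1.37 against −1.87 and −2.20 (change −0.68). Ndufaf7, a methyltransferase of mitochondria, had −2.96 and −2.99 against −3.17 and −3.28 (−0.48), and Ndufaf4 had −0.13 and 0.33 against −0.01 and −0.07 (−0.37). The groups were apart in Ndufaf1, Ndufaf3 and Ndufaf7. Of 6 tested assembly factors of complex I with other names, the median was −0.36, and 3 were apart, STZ lower. The share apart below was 17.9% of all tested probes and 30.2% of bright ones, and the bright probes had a median of −0.32.

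Complex II couples the citric acid cycle to the chain, and all 4 of its subunits were measured. Sdha, the flavoprotein, had 3.96 and 3.89 in sham and 3.50 and 3.63 in STZ. Its change was −0.59, and −0.58 with its other probe, which is printed as 10 spots. Sdhb, the iron-sulfur subunit, had 3.03 and 3.13 against 2.76 and 2.83 (change −0.51), so that the groups were apart in both catalytic subunits. The membrane anchors overlapped: Sdhc had 4.12 and 4.39 against 4.16 and 3.94 (−0.43), and Sdhd had 3.90 and 4.22 against 4.10 and 3.91 (−0.28). Relative to the bright probes Sdhd turned to 0.04.

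In complex III, the core proteins Uqcrc1 and Uqcrc2 were the only members whose groups were apart on the 75th percentile scale. Uqcrc1 had 4.13 and 4.02 in sham and 3.94 and 3.47 in STZ (change −0.60), and Uqcrc2 had 4.35 and 4.54 against 4.17 and 4.19 (−0.50). Uqcrfs1, the Rieske iron-sulfur protein, had 3.83 and 4.18 against 3.83 and 3.82 (−0.41), so that its groups touched at the lowest sham array. Uqcrq, a small subunit, varied most within sham, at −2.83 and −5.29, with −4.32 and −4.53 in STZ, and its change went from −0.59 to 0.67 without sham 1+3.

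Complex IV had the smallest share of genes with groups apart of all complexes, 6.67%, against 17.9% of all tested probes and 30.2% of bright ones. Its difference from the other complexes was not tested. Of 15 tested genes, 11 lay below the median of all probes, but only 5 lay below the median of bright probes, and Cox8a alone had groups that did not overlap. Cox4i1, the usual form of the first nuclear subunit to join the complex, had −0.05 and 0.37 in sham and 0.26 and 0.22 in STZ (change −0.15). Its alternative form Cox4i2, known from lung, had −4.06 and −4.16 in sham and −4.10 and −2.88 in STZ (0.40), high on STZ 2+4 alone. Without STZ 2+4 its change was −0.02. Cox6b2, a testis form, had −0.14 and 0.39 in sham and −0.20 and 1.20 in STZ (0.15), and it was again highest on STZ 2+4. Its ubiquitous counterpart Cox6b1 had −2.25 and −1.48 against −1.83 and −2.07 (−0.31). Cox7a2l, a factor of supercomplex assembly, had 4.63 and 4.36 against 4.56 and 4.89 (0.01), and Cox7b had 5.08 and 4.77 against 4.60 and 5.71 (0.00).

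The heart and muscle isoforms of complex IV followed single arrays. Cox8b had 1.34 and 3.0 in sham and 1.68 and 1.62 in STZ, and Cox6a2 had 2.99 and 4.11 in sham and 3.44 and 2.98 in STZ. Both were high on sham 2+4, and so was Cox5a, a subunit found in all tissues, at 3.27 and 4.71 in sham and 3.97 and 3.03 in STZ. The changes of these genes were −0.75, −0.56 and −0.72, and without sham 2+4 they were 0.05, −0.03 and −0.02. Of the 16 tested of 20 skeletal muscle markers, 10 were also highest on sham 2+4 and 6 on an STZ array. Their median change was −0.42, with 12 below the median of all probes and 4 above it. Tnni1 and Mb, markers of slow or oxidative fibres, were higher in STZ at an unadjusted p under 0.05 (changes 1.84 and 1.20). Other markers of such fibres did not share this rise, with Myh7 at −0.36, Tnnt1 at 0.08 and Myh2 at −1.02. The summed level of the 16 was 628 on sham 1+3, 939 on sham 2+4, 700 on STZ 1+3 and 797 on STZ 2+4 times the 75th percentile intensity. Their part in the values of these isoforms was not tested. The ubiquitous partners varied less between arrays. Cox6a1 had 4.95 and 4.92 in sham and 4.77 and 5.14 in STZ (change −0.21), Cox8a had 4.49 and 4.67 against 4.35 and 4.46 (−0.40), and Cox7a2 had 3.23 and 3.19 against 2.77 and 3.59 (−0.26). In bulk tissue, fewer cells of a type and less RNA per cell cannot be told apart.

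**Figure D4:**
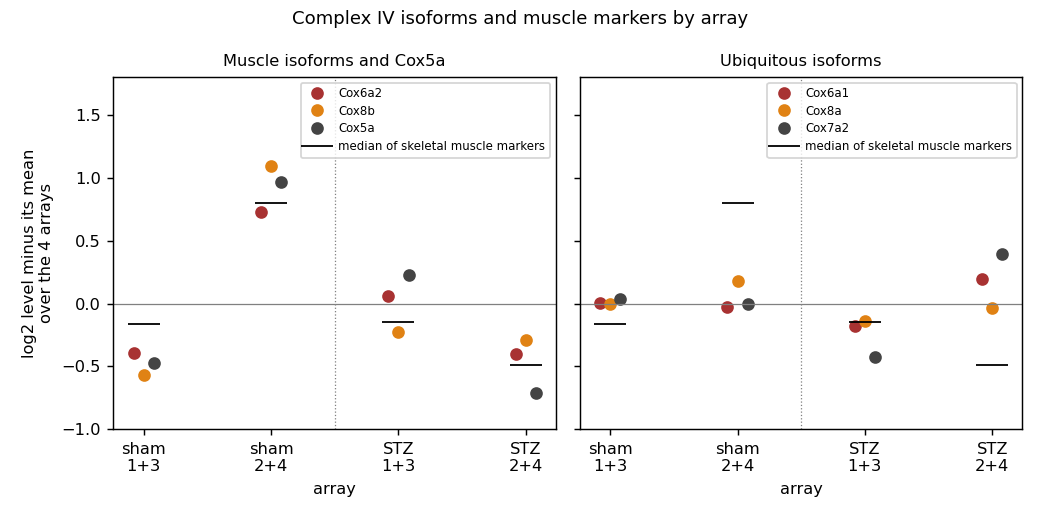
Level of the muscle isoforms Cox6a2 and Cox8b with Cox5a (left) and of the ubiquitous isoforms Cox6a1, Cox8a and Cox7a2 (right) on each array, as log2 level minus the mean of the gene over the 4 arrays. Black bars are the median of 16 skeletal muscle markers treated the same way. The points on the left are highest on sham 2+4, where the median of the muscle markers is also highest, while on the right Cox8a is highest there by a small margin and Cox6a1 and Cox7a2 are highest on STZ 2+4.

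In complex V, medians differed by part of the enzyme, but the ranges of the parts overlapped. The 5 subunits of F1, the catalytic head, had a median change of −0.67 (−2.12 to −0.30) with groups apart in 4. The 9 tested genes of Fo and the stalk, which carry the proton channel and the stator, had a median of −0.14 (−0.66 to 0.14). In 1 of them STZ was apart below. The share apart below was 17.9% of all tested probes and 30.2% of bright ones. With each array centred on its median, 5 of 5 and 5 of 9 were apart below, against 22.8% of all and 37.1% of bright probes. The difference between the parts was not tested. Atp5f1a, the alpha subunit, had 5.57 and 6.15 in sham and 5.47 and 5.26 in STZ (change −0.72). Atp5f1b, the catalytic beta subunit, had 6.06 and 6.17 against 5.80 and 6.05 (−0.41), and Atp5f1d, the delta subunit, had 4.13 and 4.30 against 3.92 and 3.63 (−0.67).

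Atp5f1c, the gamma subunit that forms the rotor shaft, had the lowest change of all members, −2.12 (SE 1.12; limma, adjusted p = 0.599). Its levels were 4.74 and 5.02 in sham and 4.62 and 1.35 in STZ, so the value came from a single spot on the STZ 2+4 array, and without that array the change was −0.29. In Fo, Atp5mc2, a gene of the c ring, had 3.0 and 3.65 in sham and 3.66 and 3.73 in STZ (0.14), and without sham 1+3 its change was −0.16. Atp5me had 5.08 and 5.92 against 5.16 and 4.96 (−0.66), high on sham 2+4. Atp5if1, which inhibits the enzyme when it runs backwards, had 4.62 and 4.61 against 4.40 and 4.49 (−0.39), with groups apart.

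Across the complexes, the 14 genes of the catalytic core (the 7 hydrophilic core subunits of complex I, all of complex II, the Rieske protein and the alpha and beta subunits of ATP synthase) had a median change of −0.55. All 14 lay below the median of all probes, and 13 lay below that of bright probes. The groups were apart in 10 (71.4%), against 17.9% of all tested probes and 30.2% of bright ones. The median standard error of these core genes was 0.43, of the same order as their changes. The sham arrays differed by over 0.5 in 19 of 79 members and the STZ arrays in 20, and 56 members were higher on sham 2+4 than on sham 1+3.

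Genes around the chain had similar medians. Cytochrome c and the electron transfer flavoprotein genes had a median of −0.50 over 5 tested genes. Cycs, the somatic cytochrome c, had 3.04 and 3.18 in sham and 2.53 and 2.14 in STZ (change −1.0). The 12 tested genes of coenzyme Q synthesis had a median of −0.53, led by Coq9 with 3.30 and 3.60 against 2.60 and 2.66 (−1.05). Citric acid cycle and pyruvate dehydrogenase genes had −0.54 over 18, the assembly factors of complexes II to V −0.30 over 26, and the nucleotide and phosphate carriers and porins −0.34 over 6. Glycolysis genes, which supply pyruvate in the cytosol, had a median of 0.20 over 15, with a middle range of −0.31 to 0.31. Of these genes 7 lay below the median of all probes and 8 above it. Pgam1, with the smallest p of that list, had 5.34 and 5.26 in sham and 6.14 and 5.80 in STZ (0.44).

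In these neighbouring lists, no gene passed the adjusted test and 3 had an unadjusted p under 0.05. They were 1 of 13 regulators, 1 of 3 uncoupling proteins and 1 of 18 citric acid cycle and pyruvate dehydrogenase genes. The lists without such a gene held 26, 15, 12, 6, 6 and 5 tested genes. Over all tested probes, 3.52% were lower and 7.3% higher at that p. Ppargc1a, the coactivator of mitochondrial biogenesis, had −2.49 and −2.42 in sham and −4.17 and −4.73 in STZ, a change of −2.22 (limma, unadjusted p = 0.0068, adjusted p = 0.222). The unadjusted call was lost after normexp with the 75th percentile (change −1.10) and without sham 2+4 (−2.21). The 13 tested regulators of mitochondrial genes had a median of −0.50, and Tfam, which packages mitochondrial DNA and helps to start its transcription, had 1.95 and 2.13 against 1.70 and 1.69 (−0.57). Ucp2, an inner membrane carrier of the uncoupling protein family, had 1.13 and 2.58 against 0.16 and −1.34, a change of −2.67 (limma, unadjusted p = 0.0255, adjusted p = 0.368). Its call was lost without STZ 2+4 (−1.72) and without sham 2+4 (−1.98). Ucp3, its muscle relative, had 1.78 and 1.11 against 0.57 and 0.13 (−1.33). Idh2, the NADP-dependent isocitrate dehydrogenase of mitochondria, had 2.36 and 2.79 against 3.99 and 4.31, a change of 1.35 (limma, unadjusted p = 0.0165, adjusted p = 0.314). That call was lost without sham 1+3 (1.17) and without sham 2+4 (1.54).

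Several cell types of skin had markers with far larger changes than the respiratory genes. The median changes were −1.76 for 10 tested of 12 adipocyte markers, −2.07 for 6 of 7 Schwann cell and nerve markers, −3.73 for 7 of 8 erythroid markers and −6.39 for 14 of 17 hair shaft and inner root sheath markers. They were 2.25 for 10 of 10 macrophage, 4.38 for 7 of 10 neutrophil and 2.68 for 11 of 11 T and NK cell markers. Smaller medians were those of basal (−0.28, 5 of 8) and suprabasal keratinocyte (−0.03, 5 of 10) and sebocyte markers (−0.03, 6 of 10). Melanocyte (−0.05, 4 of 6), brown adipocyte (−0.30, 6 of 7), endothelial (0.55, 5 of 8) and fibroblast markers (0.72, 8 of 10) also had smaller ones. At an unadjusted p under 0.05, 5 adipocyte, 4 Schwann cell and nerve, 7 erythroid and 14 hair markers were lower. At that p, 9 macrophage, 6 neutrophil and 9 T and NK cell markers were higher. Of all tested probes, 3.52% were lower and 7.3% higher. The summed level of the adipocyte markers was 286 and 304 times the 75th percentile intensity in sham and 76.7 and 131 in STZ, and that of the macrophage markers was 81.7 and 40.4 in sham and 287 and 417 in STZ. The part of these cell types in the values of the respiratory genes was not tested.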

How the data were processed

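Spot intensities were read by the authors with Agilent Feature Extraction, version 11.0.1.1 per the file headers and 11.0.0.1 per the submitters' processing notes. The deposited intensity is the scanner software's processed signal, after background subtraction and before any scaling of arrays to each other, per the file headers. The deposited flags for well above background, saturated and outlying spots are other values of 0 or 1. From the log2 signals of a sample their 75th percentile over noncontrol spots was subtracted, and spots of a probe were averaged without outliers. Rescans, found from spot patterns, were averaged into 4 arrays. Tested probes had a signal well above background in 4 or more of 8 samples, 21529 of 24684, with lmFit and eBayes (limma 3.58.1, R 4.3.3), two-sided, with Benjamini-Hochberg adjustment over all of them. The number of arrays limits the precision, and the p-values measure only the spread between these arrays, which may be technical.

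Probes were named through RefSeq accessions (GRCr8), which covered 14237 of 15286 coding accessions. A gene with several probes took the brightest. Named genes were, per complex, up to 4 tested members each way with the smallest p, all catalytic core and isoform genes, and up to 4 per list of related genes, of which 8 are given. Ndufa10 and Ndufa10l1 were named outside this rule as near copies, and 1 gene that the rule names is not reported here. Members and lists were chosen with earlier results of these data known. Alternatives were other scalings, background corrections, filters, probe averaging, treatments of rescans, blocks, reference probes and leaving out each array. Normexp used the median spot intensity because the files hold no mean. The fit was tested on simulated data.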

Additional observations from a re-analysis of the deposited data

How the results depend on the processing

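Relative to all tested probes every median kept its sign; relative to bright probes that of complex IV turned, and so did that of all members (0.06) once sham 2+4 was left out as well, and apart from the fits of the 8 samples without averaging, no alternative gave a member an adjusted p under 0.05. Quantile normalization gave medians of -0.27 (complex I), -0.62 (Ndufaf), -0.12 (II), -0.20 (III), -0.06 (IV), -0.12 (V) and -0.18 (all members), and, after normexp, -0.26, -0.43, -0.27, -0.19, -0.04, -0.11 and -0.20, with 1 member, Ndufv1, lower at an unadjusted p under 0.05. Normexp with the 75th percentile gave -0.66 (I), -0.80 (II) and -0.56 (all). No filter gave -0.61 (I), -0.61 (II), -0.55 (III) and -0.55 (all), and probes above background in all samples -0.33 (all). Relative to bright probes, chosen after the data were seen like normexp on median signals and the scan block, the medians were -0.15 (I), -0.16 (Ndufaf), -0.15 (II), -0.09 (III), 0.06 (IV), -0.07 (V) and -0.09 (all). Leaving out each array in turn gave -0.59 to -0.35 (I), -0.69 to -0.32 (Ndufaf), -0.65 to -0.24 (II), -0.57 to -0.21 (III), -0.33 to -0.03 (IV), -0.44 to -0.26 (V) and -0.56 to -0.31 (all), with 0 to 1 members lower at an unadjusted p under 0.05; the lone array was assumed to vary like the pair of the other group. Rescans taken as separate arrays gave 24 such members, 11 of them past adjustment, and 16 and 3 with the scan as a block, because each array then counts as more than 1. The causes of the other differences were not tested.

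Single genes turned sign under quantile normalization (Ndufa4 -0.46, Sdhd 0.05, Cox7a2 0.09, Cox4i1 0.12), normexp with the 75th percentile (Cox7a2l -0.20, Atp5mc2 -0.06), normexp with quantile normalization (Ndufb11 -0.01, Ndufa4 -0.15, Cox7a2 0.06, Cox4i1 0.17), no filter (Ndufa4 -0.07, Cox7a2l -0.14) and, among the named genes, relative to bright probes (Sdhd 0.04, Cox6a1 0.11, Cox7a2 0.06, Cox4i1 0.17, Cox6b1 0.01). They also turned when an array was left out, with ranges of -0.10 to 1.54 (Ndufb11), -0.40 to 0.54 (Ndufa4), -1.84 to 0.67 (Uqcrq), -1.55 to 0.05 (Cox8b), -0.16 to 0.17 (Cox7a2l), -0.02 to 0.85 (Cox4i2), -0.36 to 0.70 (Cox6b2), -0.16 to 0.44 (Atp5mc2), -1.01 to 0.10 (Ndufs8), -0.33 to 0.06 (Cox4i1), -0.67 to 0.05 (Cox6b1) and -0.53 to 0.01 (Sdhd).

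The arrays share only a replicate number, and same-numbered arrays deviated from their group means with a correlation of -0.20 over all tested probes. With the replicate number as a block the median of all members stayed at -0.41 and 0 members were lower at an unadjusted p under 0.05, while all probes gave 1568 higher and 589 lower calls, against 1572 and 757 without it. The crossed pairing gave 2082 higher and 761 lower calls over all probes. The slide as a block was not run, because all 4 arrays lay on a single slide layout.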
